A study of Mus musculus with 2 samples.

Results

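The 10 genes described here encode platelet-derived growth factors (PDGFs), vascular endothelial growth factors (VEGFs) and some of their receptors. They were listed by symbol (Pdgfra, Pdgfrb, Flt1, Pdgfa, Pdgfb, Pdgfc, Pdgfd, Vegfa, Vegfb and Vegfc) and found through their Ensembl identifiers, and all 10 had values in both libraries, among 12701 genes that passed a filter on low values. The libraries came from liver cells of adult male C57/Bl6 mice injured with carbon tetrachloride (CCl4, a hepatotoxin) for 5 weeks. Foxf1 fl/fl mice, labelled wild-type, carry floxed alleles of the forkhead transcription factor gene Foxf1. The αSMACreER;Foxf1 fl/fl mice, labelled knockout, carry the same alleles and a tamoxifen-inducible Cre under the promoter of α-smooth muscle actin, so that deletion is directed to cells that express this actin and not to other cells of the preparation. Tamoxifen was given during the injury to induce deletion, and controls were littermates without Cre. The cells were those that stuck to a culture dish within 2 hours, labelled stromal, and RNA samples were pooled into 1 library per genotype. The number of animals in a pool was not given in the sources used here. The design asks whether the genotypes differ, but with 1 library each a difference has no replicate check, and no p-value is given.

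PDGF and VEGF proteins are dimers of chains that each hold a cystine knot, and they act through receptor tyrosine kinases that pair when ligand binds. PDGFRα and PDGFRβ are receptors of mesenchymal cells, and PDGF is among the best known mitogens of hepatic stellate cells (HSCs), which store retinoids in healthy liver and become collagen-producing myofibroblasts after injury. VEGF receptors are mostly found on endothelial cells, and VEGF-A from neighbouring cells maintains the fenestrated endothelium of the liver sinusoids.

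Levels are given as deposited, in FPKM (fragments per kilobase of transcript, scaled for library size), which is a level per length and can be compared between genes. Fold changes are log2(FPKM + 0.1) of αSMACreER;Foxf1 fl/fl minus Foxf1 fl/fl after the knockout values were divided by 1.02, the median ratio of the libraries. A difference of at least 1.5-fold, the size used in the study, was counted as higher or lower. Depth was estimated from the spacing of low values as about 9990000 reads in Foxf1 fl/fl and 11280000 in αSMACreER;Foxf1 fl/fl, and the 95% intervals that follow from it cover counting error only. Among the 10 members, 2 were at least 1.5-fold higher in αSMACreER;Foxf1 fl/fl cells, the receptor gene Pdgfra and the ligand gene Pdgfd, and 0 were at least 1.5-fold lower. Over all genes tested, 12.8% were at least 1.5-fold higher (1626 genes) and 13.2% were at least 1.5-fold lower (1679 genes), so the members' counts are not far from those of genes in general. The median log2 fold change of the members was 0.28, against 0.0051 for all genes tested. The split of all genes depended on the scaling. When both libraries were given the same FPKM sum, 2688 of the 12701 genes tested were higher and 1131 lower, and the median of all genes moved to 0.19. With this scaling 5 of the 10 members were at least 1.5-fold higher.

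**Figure D1:**
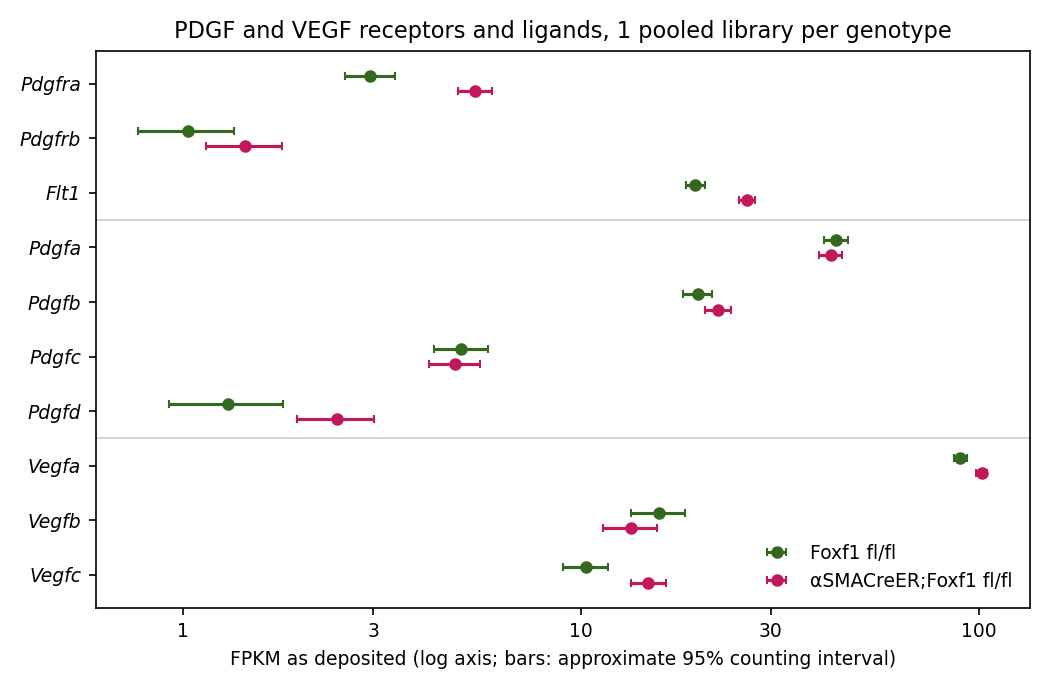
FPKM of the 10 members on a log axis, with Foxf1 fl/fl in green and αSMACreER;Foxf1 fl/fl in pink; each point is 1 pooled library and bars are approximate 95% counting intervals. The bars of Pdgfra, Pdgfd, Flt1, Vegfa and Vegfc do not overlap between genotypes, those of the other members do, and Vegfa is highest in both libraries, at 89.9 and 101.7. Bars cover counting error only, so a gene with many reads can separate at a small ratio, as Vegfa does at 1.11. The share of all genes whose bars do not overlap was not computed. With reads placed on the median transcript length, the log2 intervals of Vegfa and Vegfc reach below 0.

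The receptors were all higher in the αSMACreER;Foxf1 fl/fl library, and Pdgfra differed most. Pdgfra (ENSMUSG00000029231, chromosome 5 from 75152292 to 75198215 of GRCm38, plus strand) encodes PDGFRα, which binds the PDGF-A, PDGF-B and PDGF-C chains. Its FPKM was 2.95 in Foxf1 fl/fl and 5.40 in αSMACreER;Foxf1 fl/fl cells, from about 196 and 404 reads. The log2 fold change was 0.82 (counting interval 0.58 to 1.06), a ratio of 1.80 after scaling, and 93.3% of all genes tested lay below it. Its transcripts vary in length, from a longest of 6834 bases to a median of 1561 bases, and with reads placed on the median length the interval widened to 0.30 to 1.35.

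Pdgfrb (ENSMUSG00000024620, chromosome 18 from 61045150 to 61085061, plus strand) encodes PDGFRβ, the receptor of PDGF-BB and PDGF-DD and a common marker of activated HSCs. Its FPKM was 1.03 and 1.43, from about 54 and 84 reads, the lowest level of the members in both libraries. The log2 fold change of 0.42 had an interval from −0.036 to 0.87, so a difference was not detectable at this depth. Pdgfra was 2.88 times as high as Pdgfrb in Foxf1 fl/fl cells (interval 2.13 to 3.89) and 3.78 times as high in αSMACreER;Foxf1 fl/fl cells (2.99 to 4.78). The change of this ratio, 0.39 on the log2 scale, had an interval from −0.16 to 0.94, so these libraries do not separate the behaviour of the PDGF receptors.

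Flt1 (ENSMUSG00000029648, chromosome 5 from 147561604 to 147726011, minus strand) encodes VEGFR1, which binds VEGF-A, VEGF-B and placental growth factor and is also made as a soluble decoy. The soluble and membrane forms share one gene-level value here and were not separated. Flt1 was at an FPKM of 19.4 in Foxf1 fl/fl and 26.1 in αSMACreER;Foxf1 fl/fl cells, from about 1296 and 1973 reads. The log2 fold change was 0.40 (0.30 to 0.50), short of 1.5-fold although its counting interval lay above 0.

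Among the PDGF ligands, the lowest one differed most. Pdgfa (ENSMUSG00000025856, chromosome 5 from 138976014 to 138997370, minus strand), the ligand of PDGFRα, was at an FPKM of 43.8 and 42.4, with −0.072 as its log2 fold change (−0.21 to 0.065). Pdgfb (ENSMUSG00000000489, chromosome 15 from 79995874 to 80014977, minus strand), whose product binds both PDGF receptors and is released by platelets, endothelial cells and macrophages, was at 19.6 and 22.1, which gave 0.14 on the log2 scale (−0.019 to 0.31). For neither gene did the interval reach 1.5-fold in any direction. Of the summed PDGF ligand FPKM, Pdgfa held 62.8% in Foxf1 fl/fl and 59.1% in αSMACreER;Foxf1 fl/fl cells, and Pdgfb held 28.2% and 30.8%.

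Pdgfc and Pdgfd encode the later discovered ligands, which are secreted with an inhibitory CUB domain and need cleavage before they bind. Pdgfc (ENSMUSG00000028019, chromosome 3 from 81036416 to 81214040, plus strand), a ligand of PDGFRα, was at an FPKM of 5.00 and 4.81, a log2 difference of −0.080 (−0.38 to 0.22). Pdgfd (ENSMUSG00000032006, chromosome 9 from 6168584 to 6378850, plus strand), a ligand of PDGFRβ, had 1.30 and 2.43, from only about 38 and 80 reads. The log2 fold change of Pdgfd was 0.83, with a wide interval from 0.31 to 1.35 that reached below 1.5-fold, and 93.3% of all genes tested lay below it. In Foxf1 fl/fl cells Pdgfc was 3.85 times as high as Pdgfd (2.71 to 5.48), and in αSMACreER;Foxf1 fl/fl cells 1.98 times (1.52 to 2.58). The log2 change of this ratio was −0.96 (−1.59 to −0.32), while Pdgfd made up only 1.86% and 3.38% of the summed PDGF ligand FPKM. That sum was 69.7 in Foxf1 fl/fl and 71.8 in αSMACreER;Foxf1 fl/fl cells. Genes on the opposite strand overlap the spans of Pdgfc (Gm16000, with an FPKM of 1.20 and 2.22), Pdgfa (6330403L08Rik, with 1.39 and 1.55) and Pdgfd (Ddi1, with 0 in both libraries). Opposite-strand genes without a value here overlap Pdgfra (Gm42802 and Gm42803) and Pdgfb (Gm41361). Whether reads were counted by strand is not given in the sources used here.

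The VEGF ligands split by member. Vegfa (ENSMUSG00000023951, chromosome 17 from 46016993 to 46032369, minus strand), the main angiogenic ligand of VEGFR1 and VEGFR2 and a classical target of hypoxia-inducible factors, had an FPKM of 89.9 and 101.7, from about 2920 and 3730 reads. Its log2 fold change was 0.15 (0.082 to 0.22), a ratio of only 1.11. With reads placed on the median transcript of 874 bases the interval was −0.0020 to 0.30. Vegfb (ENSMUSG00000024962, chromosome 19 from 6982473 to 6987651, minus strand), a ligand of VEGFR1 tied to fatty acid uptake by endothelium, had 15.7 and 13.3 and was the member with the most negative log2 fold change, −0.26 (−0.57 to 0.051). Relative to genes of like longest transcript the value of Vegfb was 0.089, and by median transcript length it was −0.12. Vegfc (ENSMUSG00000031520, chromosome 8 from 54077606 to 54187096, plus strand), the lymphangiogenic ligand of VEGFR3, had 10.3 and 14.8, from about 231 and 375 reads. The log2 fold change of Vegfc was 0.49 (0.26 to 0.72), below 1.5-fold at the point value, and on the median transcript length its interval was −0.10 to 1.08. Vegfa made up 77.6% and 78.4% of the summed FPKM of these ligands. Vegfb went from 13.5% to 10.3% and Vegfc from 8.89% to 11.4%. Their order was exchanged, but the counting interval did not separate Vegfc from Vegfb in αSMACreER;Foxf1 fl/fl cells (ratio 1.11, 0.92 to 1.34).

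**Figure D2:**
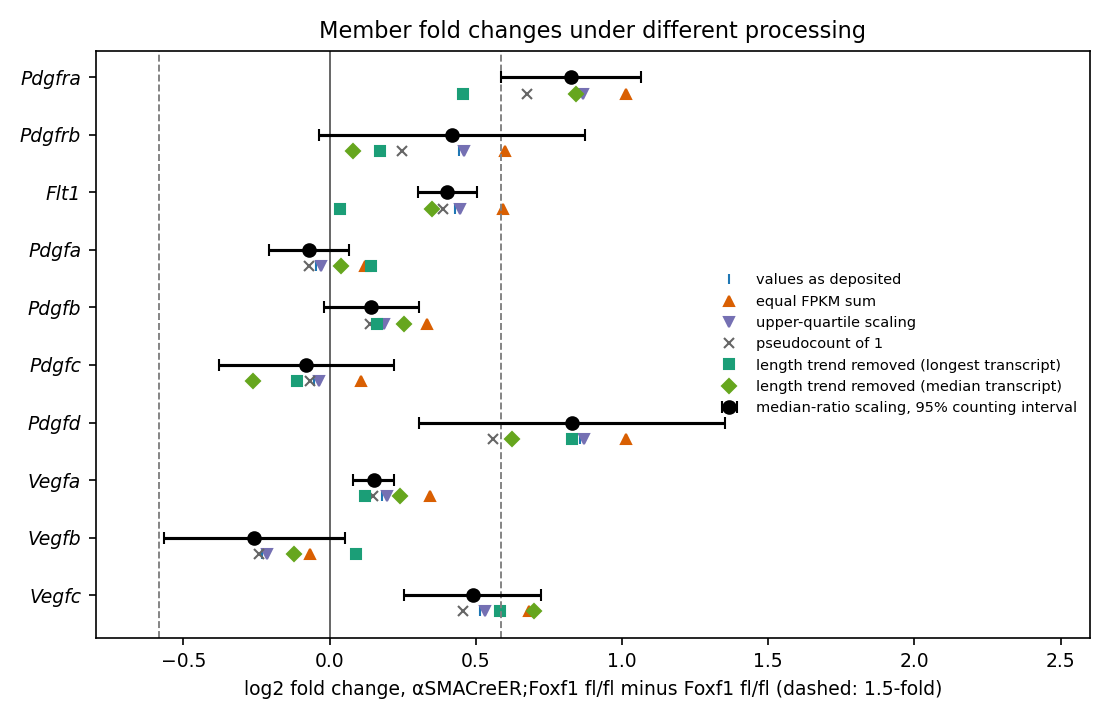
Log2 fold change of each member, with the value under median-ratio scaling and its 95% counting interval in black and values under 6 other settings as coloured symbols below; dashed lines mark 1.5-fold. Pdgfra falls to 0.46 and Flt1 to 0.036 when the trend with the longest transcript is removed, while Pdgfd stays between 0.56 and 1.01.

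The members ranged from an FPKM of 1.03 to 89.9 in Foxf1 fl/fl and from 1.43 to 101.7 in αSMACreER;Foxf1 fl/fl cells. In Foxf1 fl/fl cells the order from high to low was Vegfa, Pdgfa, Pdgfb, Flt1, Vegfb, Vegfc, Pdgfc, Pdgfra, Pdgfd and Pdgfrb. The counting intervals did not separate Pdgfb from Flt1 (ratio 1.01, 0.92 to 1.12) or Pdgfd from Pdgfrb (1.26, 0.81 to 1.95). In αSMACreER;Foxf1 fl/fl cells Flt1 stood above Pdgfb, Vegfc above Vegfb and Pdgfra above Pdgfc. Of these, only Flt1 over Pdgfb was separated by its interval (1.18, 1.08 to 1.29), and the ratio was 1.11 (0.92 to 1.34) for Vegfc over Vegfb and 1.12 (0.94 to 1.35) for Pdgfra over Pdgfc. The intervals cover counting error only. Relative to genes of like longest transcript, the log2 fold change was 0.036 for Flt1 and 0.16 for Pdgfb. By median transcript length the values were 0.35 and 0.26. Levels of 2 PDGF ligands were set against those of a receptor that binds them. The ratio of Pdgfa to Pdgfra was 14.8 (12.7 to 17.3) in Foxf1 fl/fl and 7.85 (6.98 to 8.83) in αSMACreER;Foxf1 fl/fl cells, a log2 change of −0.92 (−1.20 to −0.64). The ratio of Pdgfb to Pdgfrb was 19.1 (14.5 to 25.4) and 15.4 (12.3 to 19.4), with a log2 change of −0.31 and an interval from −0.83 to 0.21. Vegfa exceeded Flt1 4.64-fold (4.35 to 4.95) and 3.89-fold (3.69 to 4.11). These ratios are of transcript levels in the pooled preparation, and ligand and receptor may lie in different cells. Their changes were not corrected for transcript length. Genes of like longest transcript had a median log2 fold change of −0.21 for Pdgfa, 0.37 for Pdgfra, 0.032 for Vegfa and 0.37 for Flt1. By median transcript length these medians were −0.11, −0.019, −0.091 and 0.053. The part of length in the ratios was not tested.

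Promoter sequences are shown for the members that passed 1.5-fold, Pdgfra and Pdgfd, and for Vegfa, the most abundant one, as the 250 bases before the RefSeq start on GRCm38.p6. The windows lie at chr5:75152001-75152250 on the plus strand, chr9:6168236-6168485 on the plus strand and chr17:46032378-46032627 on the minus strand. Capitals mark GGGCGG, the box bound by SP1, on either strand.
Pdgfra: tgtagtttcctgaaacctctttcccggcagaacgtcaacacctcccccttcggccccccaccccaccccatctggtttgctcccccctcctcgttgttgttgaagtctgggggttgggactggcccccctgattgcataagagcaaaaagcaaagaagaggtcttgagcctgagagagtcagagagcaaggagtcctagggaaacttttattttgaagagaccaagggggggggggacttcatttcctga
Pdgfd: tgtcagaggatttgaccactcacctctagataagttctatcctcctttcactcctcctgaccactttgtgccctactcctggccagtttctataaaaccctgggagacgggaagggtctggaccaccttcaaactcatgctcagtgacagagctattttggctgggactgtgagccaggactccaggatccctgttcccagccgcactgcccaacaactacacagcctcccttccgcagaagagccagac
Vegfa: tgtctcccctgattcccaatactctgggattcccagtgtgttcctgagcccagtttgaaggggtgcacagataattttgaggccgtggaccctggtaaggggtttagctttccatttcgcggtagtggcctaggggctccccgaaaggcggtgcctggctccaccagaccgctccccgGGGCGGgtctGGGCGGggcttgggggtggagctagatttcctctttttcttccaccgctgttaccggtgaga
The table of RefSeq promoters held 10 windows of 300 bases, from 250 before to 50 after the start, for 8 of the 10 members. The forkhead core TGTTTAC, searched on both strands because the targeted factor is a forkhead protein, was in 0 of these 10 windows, against 3.65% of 32851 promoter windows of the same length. ACGTG, the core of the hypoxia element, was in 1 window, an internal Vegfa promoter, and in 19.6% of all windows. GGGCGG was in both windows of Pdgfa and of Vegfa and in the windows of Flt1, Vegfb and Vegfc. It was not in those of Pdgfra, Pdgfd and Pdgfc, and it was in 35.7% of all windows. The searched motifs do not overlap in the printed sequences. A match is only a match of letters.

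Fold changes varied with transcript length across all genes tested (rank correlation of 0.45 with the length of the longest transcript, across 12701 genes that are not independent), and some members are long. Genes in the length bins of Pdgfra and Flt1, with longest transcripts of 6834 and 6895 bases, had a median log2 fold change of 0.37. Relative to that median Pdgfra was 0.46 higher and Flt1 0.036 higher. Pdgfd, at 3131 bases, and Vegfc, at 2449 bases, lay in bins with medians of 0.0026 and −0.093, and their values relative to the bins were 0.83 and 0.58. With the median transcript length in place of the longest, the values were 0.84 for Pdgfra, 0.35 for Flt1, 0.63 for Pdgfd and 0.70 for Vegfc. The part of the length trend in the difference of Pdgfra was not tested further, and it depends on which transcript the reads came from.

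**Figure D3:**
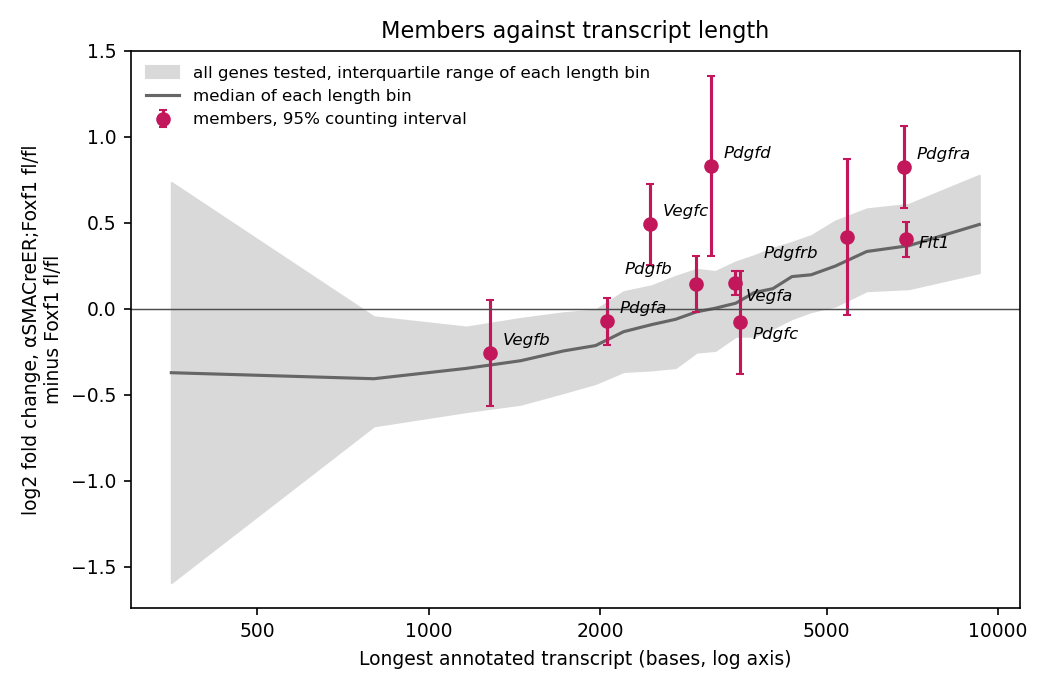
Log2 fold change against the longest annotated transcript on a log axis, with the members in pink with 95% counting intervals, the median of 20 length bins of all genes tested as a line and the interquartile range of each bin in grey. Flt1 sits on the line of its bin (0.40 against 0.37), and Pdgfd (0.83 against 0.0026) and Vegfc (0.49 against −0.093) lie above it.

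The rest of the VEGF family was read from a list of 6 genes. Kdr, which encodes VEGFR2, the main signalling receptor of VEGF-A, had an FPKM of 40.0 and 47.3, and Flt4, which encodes VEGFR3, the receptor of VEGF-C, had 33.5 and 39.8. Both had a log2 fold change of 0.22, and relative to genes of like longest transcript the values were −0.11 for both. The co-receptors, neuropilins, had larger values. Nrp2, which aids VEGF-C signalling, was at 31.1 and 48.9, a log2 fold change of 0.62 (0.55 to 0.70), and was the only one of the 6 past 1.5-fold, though not relative to genes of like longest transcript (0.26). Nrp1, which aids VEGF-A signalling, had 18.3 and 26.5 and 0.51 (0.37 to 0.65). Pgf, the placental growth factor that binds VEGFR1, had 3.41 and 3.04 and −0.18 (−0.67 to 0.30), and Vegfd, at 0.90 and 0.98, did not pass the filter. The ratio of Kdr to Flt1 was 2.06 (1.93 to 2.21) in Foxf1 fl/fl and 1.81 (1.71 to 1.92) in αSMACreER;Foxf1 fl/fl cells. With the length trend removed, the median of the family was 0.031 (longest transcript) or −0.015 (median transcript), against 0.22 without.

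Other genes of the pathway were counted from lists of related function. Of 13 genes for proteases that release the ligands and proteins that bind them, 10 had a mean FPKM of at least 1, and among these 0 were higher by 1.5-fold and 1 was lower. This was Pcsk6, a proprotein convertase, at 3.11 and 1.31 (log2 fold change −1.21, interval −1.62 to −0.80). Of 25 adaptor and effector genes, all passed the filter, 1 was higher and 0 were lower, with a median of 0.19. This was Sos1, a nucleotide exchange factor that activates RAS, at 2.25 and 3.89 (0.73, 0.49 to 0.98). Its longest transcript has 8436 bases, and relative to genes of like length its value was 0.24.

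Of 13 negative regulators of receptor tyrosine kinases, 4 were at least 1.5-fold higher, where 12.8% of all genes were, and 0 lower, with a median of 0.083. These were Cbl and Cblb, ubiquitin ligases that direct active receptors to degradation, Ptprb, a phosphatase of endothelial cells, and Spred2, an inhibitor of RAS-ERK signalling, with log2 fold changes of 1.04, 0.59, 0.69 and 0.63. Cbl had an FPKM of 3.92 and 8.31. All 4 have long transcripts, from 4449 to 11911 bases, and relative to genes of like longest transcript their values were 0.55, 0.22, 0.20 and 0.45, so that 0 of the 13 passed 1.5-fold and the median of the list was −0.016. With the median transcript length, 1 passed (Cbl, 1.25). The 17 hypoxia and HIF genes had a median of −0.16, with 1 higher and 1 lower. The higher was Arnt, the partner subunit of the HIF factors (9.68 and 17.3, log2 fold change 0.81). The lower was Ankrd37, a hypoxia-induced gene of 927 bases (8.13 and 3.80, −1.11), from about 59 and 31 reads. With the length trend removed the median of this list was −0.031 (longest transcript) or −0.072 (median transcript), and with an equal FPKM sum it was 0.026. Of 5 angiopoietin and TIE genes 4 passed the filter, and none of these or of Kit, Csf1r and Flt3, the kinases most like the PDGF receptors, passed 1.5-fold. In all these lists the genes between the thresholds were the majority, as among all genes.

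**Figure D4:**
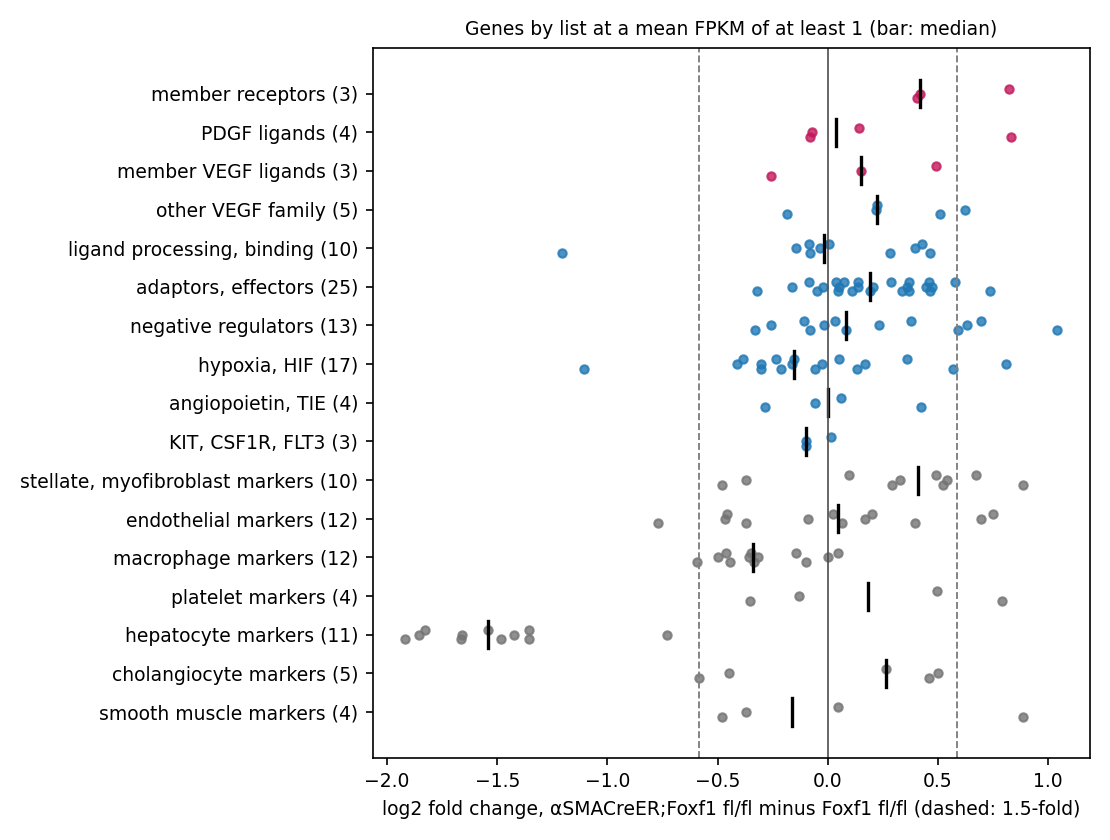
Log2 fold changes of the genes of each list with a mean FPKM of at least 1 (number in brackets), with members in pink, other pathway genes in blue and cell type markers in grey; short bars are medians and dashed lines mark 1.5-fold. All 11 hepatocyte markers lie beyond 1.5-fold on the lower side, and most pathway genes lie between the lines.

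Markers of the cell types that the preparation could hold are given beside the members. Their values and medians were not corrected for transcript length. The medians of the 20 length bins of all genes tested ranged from −0.41 to 0.49, so lists of long and short genes are not directly comparable. In pooled tissue cells, fewer cells of a type and less RNA per cell cannot be told apart. Of 15 stellate cell and myofibroblast markers, 10 passed the filter, with a median log2 fold change of 0.41, 2 at least 1.5-fold higher and 0 lower. Des, the intermediate filament desmin of HSCs, was at 1.70 and 3.29 FPKM, which is 0.89 on the log2 scale. Lrat and Reln, defining markers of quiescent HSCs, were at 0.078 and 0.11 and at 0.68 and 0.31, Gfap was listed at 0 in both libraries, and Acta2, whose promoter drives the Cre, was at 7.77 and 5.65. The collagen genes of the list had higher levels, with Col1a1 at 70.2 and 102.8, Col1a2 at 102.1 and 151.2 and Col3a1 at 114.9 and 164.4. Their log2 fold changes were 0.52, 0.54 and 0.49. The longest transcripts of these collagen genes have 5930, 5348 and 5564 bases. Length bins with a median length of 5180 and 5884 bases had median log2 fold changes of 0.25 and 0.33. Of the 10 that passed, 8 had values above 0 and 2 below, Acta2 (−0.48) and Tagln (−0.37). The summed FPKM of this list was 2289 and 2616, most of it Vim, which many cell types express.

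The 12 endothelial markers had a median of 0.045 and a summed FPKM of 1230 and 1116, with 2 at least 1.5-fold higher and 1 lower. Pecam1 was at 93.3 and 96.6, Cdh5 at 98.4 and 112.5 and Stab2, a scavenger receptor of liver sinusoidal endothelium, at 64.0 and 85.9 (log2 fold changes 0.024, 0.17 and 0.40). Of the 12, 5 had values below 0, which were −0.77 for Cldn5, −0.47 for Clec4g, −0.46 for Egfl7, −0.37 for Esam and −0.088 for Robo4. The 12 macrophage markers summed to 13357 and 11042, with a median of −0.34, 0 at least 1.5-fold higher and 1 lower. They include Clec4f (1117 and 753), Cd68 (646 and 679) and Adgre1 (162 and 165). Of the 12, 11 had values below 0 and 1 above, Cd68 (0.045). Clec4f (−0.60) was the 1 past 1.5-fold, and the next largest were C1qc (−0.50), C1qa (−0.46) and Timd4 (−0.44). The labelled stromal preparation therefore held macrophage transcripts at far higher levels than those of Pdgfra or Pdgfrb. The collagen genes of the stellate cell and myofibroblast list were also far above these receptor genes.

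Of 8 platelet markers, 4 passed the filter, with a median of 0.18, 1 at least 1.5-fold higher and 0 lower. Pf4 was at 64.5 and 51.4 and Itga2b at 8.25 and 7.67, while Gp1bb was at 0.74 and 1.37, Ppbp at 1.54 and 2.24, and Gp6 was listed at 0 in both. Gp9, at 1.37 and 0.60, and Gp1ba, at 0.24 and 0.52, did not pass the filter. The summed FPKM, most of it Pf4, was 77.2 and 64.1. All 11 hepatocyte markers with values were at least 1.5-fold lower, with a median of −1.54 and a sum of 4629 and 1652. Alb went from 2292 to 912, Ttr from 322 to 86.8 and Apoa1 from 261 to 84.2. Of 6 cholangiocyte markers 5 passed, with a median of 0.26, 0 at least 1.5-fold higher and 1 lower (Epcam). Their sum was 553 and 655, most of it Spp1 (495 and 606). Of those that passed, 3 had values above 0 and 2 below. Krt19 was at 39.7 and 29.5, Krt7 at 4.91 and 6.91 and Epcam at 8.38 and 5.65 (log2 fold changes −0.45, 0.46 and −0.59). Of 7 smooth muscle markers 4 passed, with a median of −0.16 and a sum of 25.5 and 24.3. Myh11, at 0.078 and 0.052, and Cnn1, at 0.090 and 0.077, were near 0, and Smtn was at 10.4 and 10.9. The part of any of these cell types in the values of the members was not tested.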

How the data were processed

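Per the labels and the methods of the study, RNA was pooled within each genotype, made into TruSeq libraries and sequenced as single-end reads. The authors used TopHat and Cufflinks, and each deposited file is a Cufflinks table with an FPKM per Ensembl gene. The submitters' processing notes name mm10, the assembly also called GRCm38, and versions are not given in the sources used here. Entries were matched to GENCODE M21 symbols (36574 of 38320), the highest entry was kept for a repeated symbol, and 3 entries without an OK status in both libraries were left out. Values were scaled by the median ratio of 11880 genes that reached an FPKM of 1 in each. Genes whose mean FPKM reached 1 were compared by size of difference, with a pseudocount of 0.1, since 1 library per genotype allows no test.

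Reads behind each FPKM were estimated from 989 and 1127 low single-transcript genes, assuming fragments of 200 bases (SD 80). Only 44.3% and 42.9% of those values came within 0.1 of a whole read, where even spacing gives 20%, so the estimate is rough and no count test was run. Reads were placed on the longest transcript. PCR duplicates are not independent molecules, and intervals hold no variation between animals. Lists were written from general knowledge. The members and lists were chosen with earlier results of these data known, and the motifs searched were chosen after the values were seen. All members and the other VEGF family genes were to be named. So were up to 4 genes per other list with the largest difference past 1.5-fold, and the first 3 markers of each list. Further markers were named after their values were seen. The procedure was tested on simulated data. Foxf1 itself was not analysed here. Alternatives changed the pseudocount (1 and 0.01), scaling, filter, fold threshold, repeated symbols, transcript length trend (20 bins) and the length on which reads were placed. Calculations ran in Python 3.11.15 (scipy 1.17.1, numpy 2.4.6, pandas 2.3.3), and plots were drawn with matplotlib 3.10.9.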

Additional observations from a re-analysis of the deposited data

How the results depend on the processing

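No paired analysis was possible because there was only 1 library of each genotype, so leaving one out was not possible either. Of the members, 2 were at least 1.5-fold higher, and this number was 1 with a pseudocount of 1 (Pdgfra), 1 with the trend of the longest transcript removed (Pdgfd), 5 with an equal FPKM sum (also Vegfc, Pdgfrb and Flt1), 0 when the mean FPKM had to reach 5, where 4 of the 10 members were no longer counted, and 0 at 2-fold. With the trend of the median transcript removed it was 3, since Vegfc passed. The number at least 1.5-fold lower was 0 throughout. The median of the members ranged from 0.15 to 0.47. Over all 12701 genes tested, the numbers higher and lower were 1085 and 1355 with a pseudocount of 1 and 2688 and 1131 with an equal FPKM sum. With the length trend removed they were 1274 and 1417 (longest transcript) or 1577 and 1455 (median transcript), and at 2-fold they were 554 and 789. With no filter they were 3837 and 3227 of 36533 genes, and 685 and 944 of 8486 genes when the mean FPKM had to reach 5. Log2 fold changes ranged from 0.46 to 1.01 for Pdgfra, 0.56 to 1.01 for Pdgfd, 0.036 to 0.59 for Flt1, 0.080 to 0.60 for Pdgfrb, 0.46 to 0.70 for Vegfc, 0.12 to 0.34 for Vegfa and 0.14 to 0.33 for Pdgfb. Those of Pdgfa (−0.072 to 0.14), Pdgfc (−0.26 to 0.11) and Vegfb (−0.26 to 0.089) changed sign. Pdgfa rose above 0 with an equal FPKM sum and with either length trend removed. Pdgfc did so only with an equal FPKM sum, and Vegfb only with the trend of the longest transcript removed. The cause of the differences between the libraries was not tested. Counting the pathway lists relative to genes of like length was added after seeing the data. Depth limits the low members, with about 38 reads for Pdgfd and 54 for Pdgfrb in Foxf1 fl/fl, and on the median transcript length about 36 for Vegfc and 40 for Pdgfra.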
